A study of Mus musculus with 12 samples.

Results

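The probes described here lay below the array's median signal in every NS-GFP1+ sample and above it in every NS-GFP4+ sample. They were selected on those 6 columns of the deposited value table: a probe was taken when its log2 value was under the column median in all 3 NS-GFP1+ columns and over it in all 3 NS-GFP4+ columns. Of 42022 non-control probes, 207 (0.493%) met the rule, and 170 of these carry a gene symbol and represent 168 genes. The other 37 have no symbol in the table used here and are counted without a name. They are called switched-on probes below for this crossing of the median. The median is that of all probes, so a value under it is a dim signal and not the absence of a transcript.

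The series profiled LSK cells, the lineage-negative bone marrow cells that carry Sca1 and Kit, from C57BL/6 mice with an NS-GFP transgene. NS-GFP is known as a reporter in which promoter sequence of nucleostemin (Gnl3) drives green fluorescent protein, although the labels give only the abbreviation. Sorting on the level of GFP gave NS-GFP1+, NS-GFP2+, NS-GFP3+ and NS-GFP4+ cells, 4 fractions of 3 samples each, and total RNA was hybridised to single-colour Agilent arrays. The labels do not state which end of the numbering is brightest, nor whether the samples came from separate mice, so a p-value here is set against sample-to-sample spread that could be technical. The age and sex of the mice and the copy number of the transgene are not given in the labels, and all 12 samples carry the transgene.

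The LSK compartment holds the hematopoietic stem cells, which keep themselves and all blood lineages supplied over a lifetime, and the multipotent progenitors that descend from them. Stem cells are known for slow cycling, for receptors and adhesion molecules through which they are held in the marrow niche, and for a set of transcription factors whose transcripts fall as cells move to the progenitor stage. Reporters that grade LSK cells by brightness are used to order cells along that path.

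Kit, the receptor that defines LSK cells, lay above the column median in all 12 columns, with means of 12.69 ± 0.43 in NS-GFP1+, 12.73 ± 0.23 in NS-GFP2+, 12.93 ± 0.25 in NS-GFP3+ and 12.90 ± 0.27 in NS-GFP4+ (log2, SD, n = 3 each). Ly6a, which encodes Sca1, has no probe under that symbol in the table used here. The Gnl3 probe was also above the median in all 12 columns, at 10.41 ± 0.06 in NS-GFP4+ and 10.67 ± 0.05 in NS-GFP1+. Column medians ran from 6.11 to 6.12 and the lowest value of every column was 2.25, so values near 2.3 stand at the bottom of the scale, where the order of probes carries little information. The columns numbered replicate 3 stood apart at these probes: they lay higher than those of replicates 1 and 2 in each of the 4 fractions.

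Among the 207 probes the mean difference of NS-GFP4+ minus NS-GFP1+ ran from log2 0.22 to 4.63, with quartiles of 1.00, 1.53 and 2.10. It was at least 2-fold for 155 probes, at least 4-fold for 63 and at least 8-fold for 18, and under 2-fold for 52. These differences describe the selection, which used both ends, and carry no test. In the fit across all probes, 3.25% of the array was higher in NS-GFP4+ than in NS-GFP1+ at an adjusted p under 0.05, and 166 of the 207 were among them; the rule used that contrast, so nothing is read from it. At the edge of the rule, Dst lay 0.0007 and Sema3f 0.0014 log2 units inside it in their nearest column, and Il18bp lay 0.0020 and Cav2 0.0035 outside.

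The median of the switched-on probes relative to the column median was -0.81, -0.86 and -0.54 in the 3 NS-GFP1+ samples and -0.24, -0.37 and -0.19 in NS-GFP2+ (log2). It was 0.02, -0.04 and 0.15 in NS-GFP3+ and 0.48, 0.55 and 0.71 in NS-GFP4+. The probes as a group thus stood under the array median in NS-GFP2+ and about on it in NS-GFP3+, and the 3 samples of NS-GFP2+ did not overlap with those of NS-GFP3+ in this median. The middle fractions took no part in the selection. In bulk samples such as these, more or fewer cells of a type and more or less RNA per cell cannot be told apart.

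**Figure D1:**
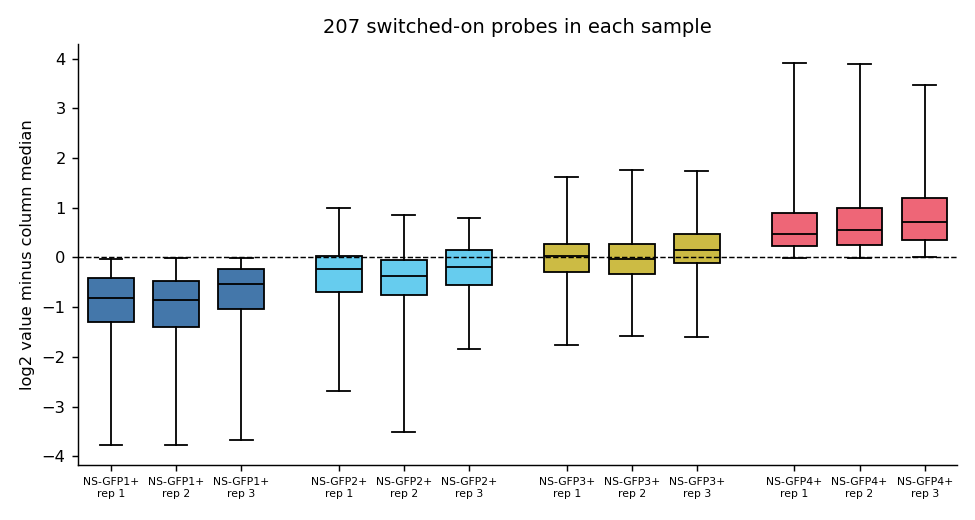
Log2 value minus column median of the 207 switched-on probes in each of the 12 samples; boxes give quartiles, the bar in each the median, and whiskers the full range. The boxes of NS-GFP1+ lie under 0 and those of NS-GFP4+ over 0 by the rule, and the highest median is 0.15 among NS-GFP3+ samples and -0.19 among NS-GFP2+ samples.

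The probe with the largest difference between the ends was that of Clip3 (A_52_P108845), which encodes a linker protein of the trans-Golgi network and microtubules. Its log2 values were 2.75, 2.77 and 2.58 in NS-GFP1+, 5.05, 4.47 and 4.78 in NS-GFP2+, 5.42, 6.00 and 6.23 in NS-GFP3+ and 7.16, 7.12 and 7.70 in NS-GFP4+. No 2 fractions overlapped. Its NS-GFP1+ values stood near the bottom of the scale, so the size of its difference (4.63) rests on dim spots. Meg3, an imprinted long noncoding RNA known to be expressed in long-term hematopoietic stem cells, came next by difference (4.12). The Meg3 probe A_51_P455997 measured 4.23, 4.25 and 4.26 in NS-GFP1+, 4.79, 4.87 and 5.82 in NS-GFP2+, 6.00, 5.52 and 7.03 in NS-GFP3+ and 8.02, 7.87 and 9.19 in NS-GFP4+. Replicate 3 was the highest of each of the 4 fractions, and 1 NS-GFP3+ value (5.52) lay under 1 NS-GFP2+ value (5.82).

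Sult1a1, a cytosolic sulfotransferase of phenols, followed by difference (4.08, or 16.9-fold). It measured 5.96, 5.53 and 5.90 in NS-GFP1+, 7.12, 6.77 and 6.81 in NS-GFP2+, 7.74, 7.86 and 7.86 in NS-GFP3+ and 10.03, 10.02 and 9.58 in NS-GFP4+. All 6 middle columns lay above the median, the fractions did not overlap, and its NS-GFP3+ values were close together (7.82 ± 0.07, against 6.90 ± 0.19 in NS-GFP2+, log2, SD, n = 3 each).

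The other 7 of the 10 largest differences belonged to Pde6h (4.05), an inhibitory subunit of the cone phosphodiesterase, Skint3 (3.98), an immunoglobulin-superfamily gene of the butyrophilin-like Skint cluster, and Scrn1 (3.88), secernin 1. They were followed by Wfdc2 (3.65), a secreted whey-acidic-protein domain protein, Tceal3 (3.65), Ryk (3.40), an atypical receptor tyrosine kinase that binds Wnt ligands, and Cldn5 (3.32), a tight-junction claudin best known from endothelium. Several of these had NS-GFP1+ values near the bottom of the scale. Cldn5, for instance, measured 2.34, 2.34 and 4.56 in NS-GFP1+, 4.62, 3.77 and 4.58 in NS-GFP2+, 5.79, 5.51 and 5.20 in NS-GFP3+ and 6.44, 6.28 and 6.48 in NS-GFP4+. Its NS-GFP1+ values spread over more than 2 log2 units, and the highest of them (4.56) overlapped with NS-GFP2+, so the size of its difference between the ends rests on dim spots.

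Promoter sequences are shown for 5 genes picked as examples, which need not be typical of the set. They are Clip3 and Sult1a1, from the top of the list by difference, and Slamf1, Tek and Mecom, known stem cell genes described below. The sequences come from RefSeq (GRCm38.p6) and run from 250 bases before to 50 after the annotated start, 5′ to 3′ along the gene. Capitals mark matches to the motif strings listed after them. The windows are chr7:30291445-30291744 (+) for Clip3, chr7:126676369-126676668 (-) for Sult1a1, chr1:171766882-171767181 (+) for Slamf1, chr4:94739039-94739338 (+) for Tek and chr3:30509710-30510009 (-) for the first listed start of Mecom.
Clip3: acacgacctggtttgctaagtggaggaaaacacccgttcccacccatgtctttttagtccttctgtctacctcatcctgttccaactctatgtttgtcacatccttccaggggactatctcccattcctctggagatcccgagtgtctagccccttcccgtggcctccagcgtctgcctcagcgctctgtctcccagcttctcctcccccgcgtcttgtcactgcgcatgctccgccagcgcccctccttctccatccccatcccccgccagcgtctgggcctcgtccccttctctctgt
Sult1a1: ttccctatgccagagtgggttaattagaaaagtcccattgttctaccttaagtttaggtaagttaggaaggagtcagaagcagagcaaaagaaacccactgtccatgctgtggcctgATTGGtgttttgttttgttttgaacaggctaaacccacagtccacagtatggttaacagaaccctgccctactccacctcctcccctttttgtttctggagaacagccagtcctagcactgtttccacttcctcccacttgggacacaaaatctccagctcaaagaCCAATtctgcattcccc
Slamf1: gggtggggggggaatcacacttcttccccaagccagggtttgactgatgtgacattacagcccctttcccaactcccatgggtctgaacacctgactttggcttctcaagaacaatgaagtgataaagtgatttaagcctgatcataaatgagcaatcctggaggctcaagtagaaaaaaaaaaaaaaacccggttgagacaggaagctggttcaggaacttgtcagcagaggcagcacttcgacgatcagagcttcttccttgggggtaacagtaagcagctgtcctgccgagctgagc
Tek: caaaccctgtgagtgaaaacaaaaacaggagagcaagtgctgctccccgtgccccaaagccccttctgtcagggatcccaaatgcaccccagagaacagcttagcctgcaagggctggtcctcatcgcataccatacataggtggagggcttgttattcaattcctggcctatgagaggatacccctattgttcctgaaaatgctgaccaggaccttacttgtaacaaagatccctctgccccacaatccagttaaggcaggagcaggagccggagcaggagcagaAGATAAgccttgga
Mecom: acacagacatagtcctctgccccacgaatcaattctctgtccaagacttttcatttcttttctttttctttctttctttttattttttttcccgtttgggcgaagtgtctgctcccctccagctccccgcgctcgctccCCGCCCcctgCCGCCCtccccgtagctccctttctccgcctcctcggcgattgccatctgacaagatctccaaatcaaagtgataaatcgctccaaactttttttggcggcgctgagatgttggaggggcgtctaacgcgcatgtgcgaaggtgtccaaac

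These 5 windows differ in composition. Clip3 holds 14 CpG and none of the strings searched, and the window of Sult1a1 holds 0 CpG and 2 CCAAT boxes. Slamf1 has 4 CpG and no match, Tek 3 CpG and 1 GATA string close to its end, and Mecom 19 CpG and 2 GC boxes. The GATA motif was searched as AGATAA, the ETS motif as CCGGAA, the RUNX motif as TGTGGT and the GC box as GGGCGG. The TATA box was searched as TATAAA, the E-box as CACGTG, the AP-1 motif as TGACTCA and the CCAAT box by its name. Each was counted on both strands whether or not it overlapped another. RefSeq windows matched 130 of the 168 genes, with 170 starts, and 14032 genes of the array, with 17370 starts.

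GC boxes were in 58.8% of the windows of switched-on genes and 51.9% of all windows, CCAAT in 28.8% and 37.7%, and the ETS string in 10.6% and 21.6%. The RUNX string was in 10.6% and 13.8%, GATA in 7.1% and 8.5%, E-box in 8.8% and 8.7% and AP-1 in 3.5% and 4.3%. Median GC content was 61.0% over the windows of switched-on genes and 58.3% over all, and the median CpG count was 15 against 16. These shares are descriptions of letters in a window and were not tested.

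The rule does not fix the fraction at which a probe passes the median. A probe was counted above in a fraction when at least 2 of its 3 columns lay over their medians. By that count 48 probes (23.2%) crossed at NS-GFP2+, 61 (29.5%) at NS-GFP3+ and 96 (46.4%) at NS-GFP4+. The other 2, Alg6 and the unnamed probe A_51_P120785, were above in NS-GFP2+ and not in NS-GFP3+. Over all probes of the array, being above in NS-GFP3+ but not in NS-GFP2+ was about as frequent (421 probes, 1.00%) as the reverse (440, 1.05%), whereas among the switched-on probes the counts were 61 and 2. These 2 counts were 38 and 8 in the per-array files, and 4 and 0 when read against the 60th percentile. Above the median in all 6 middle columns were 17 probes, and 41 were below in all 6.

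By sample, 108, 98 and 131 of the 207 lay above the median in NS-GFP3+, against 56, 45 and 75 in NS-GFP2+. The lowest NS-GFP3+ sample exceeded the highest NS-GFP2+ sample, and replicate 3 had the highest count in both fractions. With replicate 3 left out of all fractions, the same probes were counted by the mean of the remaining columns relative to the median. By that count 44 crossed at NS-GFP2+, 55 at NS-GFP3+ and 105 at NS-GFP4+, and 3 were above in NS-GFP2+ alone. By the mean of all columns these counts were 42, 69, 94 and 2. With replicate 3 left out of the selection too, 408 probes met the rule, and leaving out NS-GFP1+ replicate 3 alone gave 338.

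**Figure D2:**
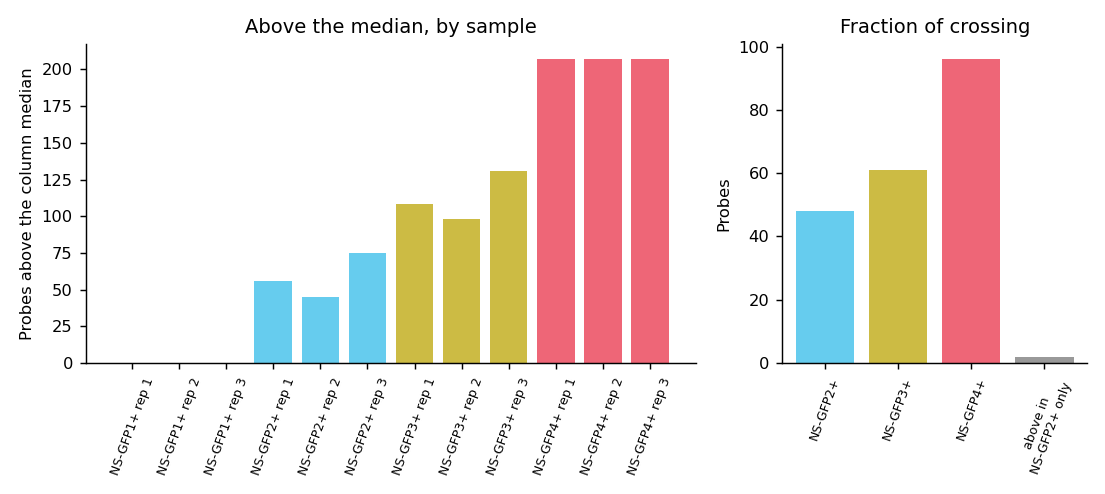
Left, number of the 207 switched-on probes above the column median in each sample (0 and 207 at the ends by the rule). Right, number of probes by the fraction at which they first stay above the median: 48 at NS-GFP2+, 61 at NS-GFP3+, 96 at NS-GFP4+ and 2 above in NS-GFP2+ only.

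The 3 classes differed in where they started and ended rather than in the size of the difference. The median difference between the ends was log2 1.55 for probes crossing at NS-GFP2+, 1.62 at NS-GFP3+ and 1.47 at NS-GFP4+. The median NS-GFP1+ mean stood at -0.34, -0.82 and -1.01 relative to the column median in these classes, and the median NS-GFP4+ mean at 1.07, 0.71 and 0.43. The fraction of crossing thus depends on each probe's position relative to the median, and an early crossing need not be an earlier change of the gene.

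Among the probes crossing at NS-GFP2+, the 5 largest differences were those of Sult1a1, Tcf15 (3.16), Jam3 (2.87), Tceal6 (2.64) and Insrr (2.61). Tcf15, a basic helix-loop-helix factor of somite formation that also marks quiescent stem cells in mouse marrow, measured 5.37, 5.32 and 6.06 in NS-GFP1+, 6.64, 6.46 and 6.82 in NS-GFP2+, 7.34, 7.34 and 7.65 in NS-GFP3+ and 8.65, 8.68 and 8.88 in NS-GFP4+. No 2 fractions overlapped. Jam3, a junctional adhesion molecule carried by hematopoietic stem cells, measured 5.51, 5.80 and 6.01 in NS-GFP1+, 7.03, 6.88 and 6.60 in NS-GFP2+, 7.56, 7.74 and 7.05 in NS-GFP3+ and 8.67, 8.62 and 8.63 in NS-GFP4+. Its fractions did not overlap either, and its 3 NS-GFP4+ values lay within 0.05 of each other. Insrr, a receptor kinase related to the insulin receptor that responds to alkaline pH, had means of 8.31 ± 0.10 in NS-GFP4+ and 5.70 ± 0.24 in NS-GFP1+.

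At NS-GFP3+ the 5 largest were Wfdc2, Tceal3, Ephb4 (3.32), Il4 (3.07) and Lurap1 (3.03). Ephb4, the receptor of ephrin-B2, measured 3.55, 3.98 and 4.72 in NS-GFP1+, 5.87, 5.81 and 5.80 in NS-GFP2+, 6.15, 6.36 and 6.56 in NS-GFP3+ and 7.41, 7.24 and 7.56 in NS-GFP4+. Its 3 NS-GFP2+ values lay within 0.1 of each other, a little under the median, and all NS-GFP3+ values were over it. Il4, the cytokine of type 2 immunity, measured 4.61, 4.56 and 5.39 in NS-GFP1+, 6.00, 5.70 and 6.12 in NS-GFP2+, 6.57, 6.74 and 6.90 in NS-GFP3+ and 7.87, 7.93 and 7.97 in NS-GFP4+. Its fractions did not overlap, and the highest NS-GFP2+ value lay just under its column median.

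At NS-GFP4+ the 5 largest were Clip3, Meg3, Pde6h, Skint3 and Scrn1, all of which stood far under the median in NS-GFP1+. Scrn1 measured 2.46, 2.54 and 3.94 in NS-GFP1+, 4.85, 2.59 and 5.21 in NS-GFP2+, 5.24, 5.05 and 6.05 in NS-GFP3+ and 6.60, 6.42 and 7.57 in NS-GFP4+. One NS-GFP2+ value (2.59) was at the bottom of the scale while the other 2 were near 5, so its NS-GFP2+ mean is uncertain.

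**Figure D3:**
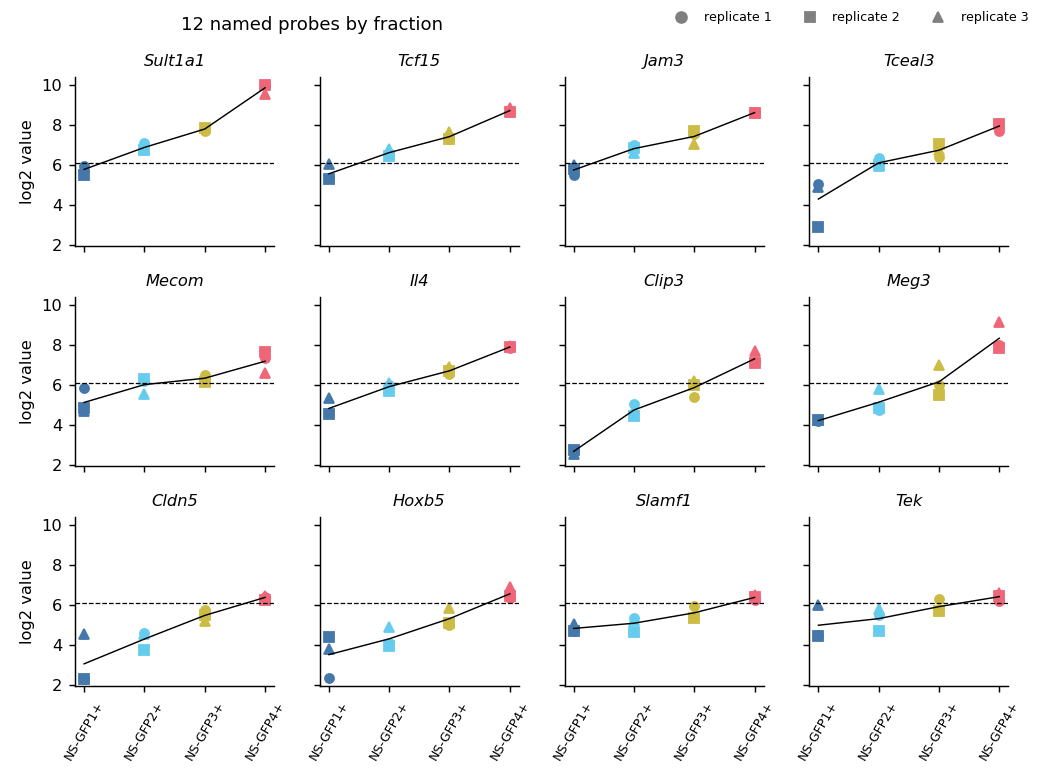
Log2 values of 12 switched-on probes in the 4 fractions; symbols are replicates, the line joins the fraction means and the dashed line is the column median (6.11 to 6.12). Sult1a1, Tcf15 and Jam3 are above the median from NS-GFP2+. Clip3, Cldn5, Hoxb5, Slamf1 and Tek have a mean above it in NS-GFP4+ alone among the fractions.

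To compare probes of different size, each middle fraction was placed between the ends, with 0 at the NS-GFP1+ mean and 1 at the NS-GFP4+ mean. The median place of NS-GFP3+ was 0.59 (quartiles 0.49 and 0.68) and that of NS-GFP2+ 0.34 (0.22 and 0.45). Taken by replicate number, the median place was 0.57, 0.53 and 0.69 for NS-GFP3+ and 0.35, 0.28 and 0.39 for NS-GFP2+. The lowest of the NS-GFP3+ places exceeded the highest of the NS-GFP2+ places. Fraction means increased at every step for 178 of the 207. The median step was log2 0.48 between NS-GFP1+ and NS-GFP2+, 0.37 between NS-GFP2+ and NS-GFP3+ and 0.63 between NS-GFP3+ and NS-GFP4+. The last step was the largest for 109 probes, the first for 73 and the middle one for 25. The rule used both ends, so the places and the first and last steps are descriptions of the selection. Only the middle step lies between fractions that the rule did not use, and the step sizes are therefore not like for like.

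Some probes departed from a rise at every step. In 9 the NS-GFP2+ mean was at or below the NS-GFP1+ mean, in 17 the NS-GFP3+ mean was below the NS-GFP2+ mean, and in 3 the NS-GFP3+ mean was at or above the NS-GFP4+ mean. Cyp26b1, which degrades retinoic acid, measured 5.41, 5.85 and 5.01 in NS-GFP1+, 4.43, 5.44 and 6.06 in NS-GFP2+, 4.67, 5.38 and 6.56 in NS-GFP3+ and 7.21, 7.05 and 8.36 in NS-GFP4+. Its first 3 fractions overlapped and NS-GFP4+ stood above them all. Cd248, endosialin, had overlapping NS-GFP1+ and NS-GFP2+ values, with means of 4.81 ± 0.30, 4.80 ± 0.17, 5.26 ± 0.23 and 6.79 ± 0.23 from NS-GFP1+ to NS-GFP4+. These 2 genes were picked after their values were seen.

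**Figure D4:**
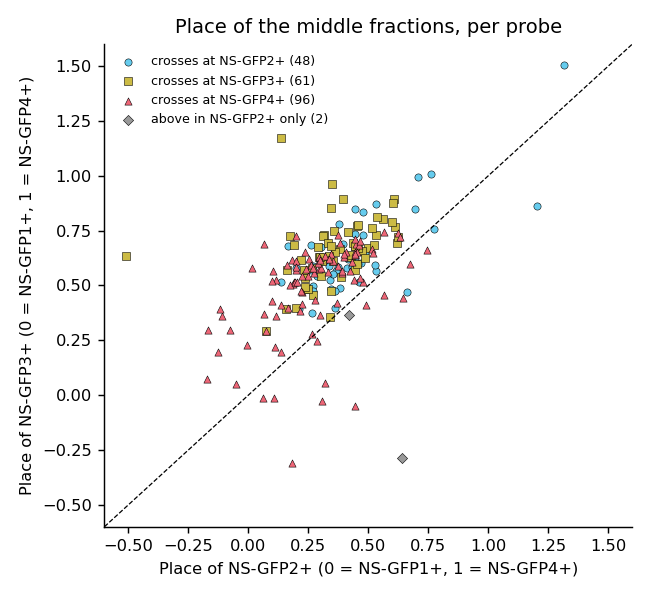
Place of NS-GFP2+ (x) and NS-GFP3+ (y) between the ends for each of the 207 probes, coloured by the fraction of crossing; the dashed line marks equal places. Above the line are 190 probes, and the medians are 0.59 for NS-GFP3+ and 0.34 for NS-GFP2+.

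NS-GFP3+ against NS-GFP2+ is the pair of fractions that the rule did not use, and it was tested with limma across all 42022 probes. Neither any switched-on probe nor any other probe passed an adjusted p of 0.05 (0 of 42022, 0%), and the lowest adjusted p of a switched-on probe was 0.362, at Sult1a1. At an unadjusted p under 0.05, 58 of the 207 (28.0%) were higher in NS-GFP3+, against 2.23% of all probes, and 1 (0.483%) was lower, against 2.20% of all. With the replicate number as a block 89 were higher, against 3.72% of all probes in that fit, and 2 were lower, against 3.68%, and the lowest adjusted p was 0.073. A difference in single genes was therefore not detected with 3 arrays a fraction.

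The direction was shared by most of the set. In 190 of the 207 (91.8%) the NS-GFP3+ mean was above the NS-GFP2+ mean, against 48.2% of all probes, and the median difference was log2 0.37 against -0.01 over all probes. In 67 (32.4%) all 3 NS-GFP3+ values lay above all 3 NS-GFP2+ values, against 3.89% of the array, and in 1 (0.483%) all lay below, against 4.43%. In 127 (61.4%) the NS-GFP3+ sample was higher in each of the 3 same-numbered pairs, against 13.7% of all probes. The median over the set was 0.30, 0.44 and 0.41 in these pairs. Beside this, the mean level of the B cell list relative to the column median was 0.86 to 1.18 in NS-GFP3+ samples and 1.79 to 1.98 in NS-GFP2+ samples. The T and NK cell list was at 1.23 to 1.40 in NS-GFP3+ and 1.61 to 1.80 in NS-GFP2+, and the stroma and endothelium list at 1.58 to 1.85 and 1.86 to 1.99. The cell cycle list, with 29 of 31 genes higher in NS-GFP3+, was at 5.29 to 5.39 in NS-GFP3+ and 5.13 to 5.24 in NS-GFP2+. The stem cell list, which holds 4 switched-on genes, was at 3.28 to 3.55 and 2.96 to 3.25. These 5 of the 14 lists did not overlap between the fractions, and their part in the result was not tested.

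**Figure D5:**
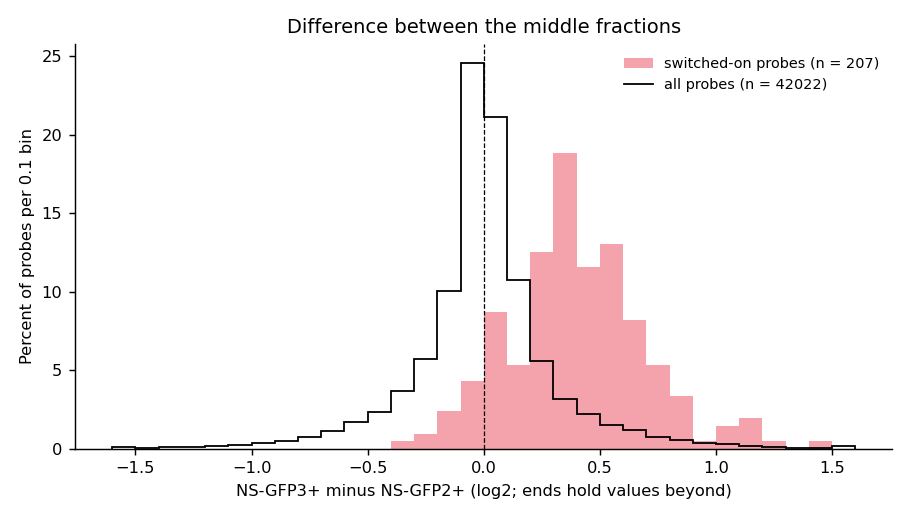
Distribution of the NS-GFP3+ minus NS-GFP2+ difference (log2 of fitted means) for the 207 switched-on probes, filled, and for all 42022 probes, outlined, as percent per bin of 0.1. The medians are 0.37 for the switched-on probes and -0.01 for all.

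The largest differences of NS-GFP3+ minus NS-GFP2+ were those of Skint3 (1.46 ± 0.34, SE), Scrn1 (1.23 ± 0.69), Gucy1b1 (1.18 ± 0.33), Cldn5 (1.18 ± 0.53) and Pde6h (1.13 ± 0.46), none past the threshold. The value for Scrn1 rested on NS-GFP2+ replicate 2, without which it was 0.42. In the per-array files it was 0.76 for Scrn1 and 0.68 for Pde6h. Gucy1b1, the beta subunit of the nitric-oxide receptor guanylate cyclase, measured 4.15, 4.11 and 5.07 in NS-GFP1+, 4.08, 4.31 and 5.31 in NS-GFP2+, 5.93, 5.72 and 5.60 in NS-GFP3+ and 6.30, 6.39 and 6.33 in NS-GFP4+. NS-GFP2+ overlapped with NS-GFP1+ in this probe, and NS-GFP3+ lay above both with no overlap. Skint3 measured 2.37, 3.36 and 2.87 in NS-GFP1+, 3.59, 3.68 and 4.36 in NS-GFP2+, 5.50, 4.97 and 5.55 in NS-GFP3+ and 6.55, 6.55 and 7.44 in NS-GFP4+. All its NS-GFP3+ values exceeded those of NS-GFP2+, by limma at an adjusted p of 0.736.

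On the lower side were A_51_P120785 (-0.39 ± 0.14), Ablim3 (-0.26 ± 0.22), an actin-binding LIM protein, and Cnnm1 (-0.23 ± 0.36), of a family of magnesium transport mediators. Marchf9 (-0.18 ± 0.10), a membrane ubiquitin ligase, and Bmp4 (-0.18 ± 0.36), a bone morphogenetic protein, followed. None passed the threshold. A_51_P120785 was the probe whose 3 NS-GFP3+ values (5.98, 5.88 and 5.59) lay all below its 3 NS-GFP2+ values (6.03, 6.39 and 6.18). The sign for Cnnm1 and Bmp4 depended on a single column: without NS-GFP3+ replicate 1 the difference for Cnnm1 was 0.08, and without NS-GFP2+ replicate 3 that for Bmp4 was 0.02. With single columns left out the value ran from -0.65 to 0.08 for Cnnm1, from -0.43 to 0.02 for Bmp4 and from -0.47 to -0.06 for Ablim3, for which the value nearest 0 came without NS-GFP3+ replicate 2.

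By role, 71 of the 168 genes were sorted into 7 groups after the members were known, and the counts that follow are descriptions. A higher mean in NS-GFP3+ than in NS-GFP2+ was found for 9 of 10 probes of ligands, 11 of 11 of receptors, 10 of 10 of kinases, phosphatases and adaptors and 13 of 16 of transcription and chromatin. It was found for 11 of 11 of adhesion and matrix, 5 of 5 of the TCEAL and BEX group and 10 of 10 of metabolic enzymes, against 91.8% of the whole set. Ligands and secreted proteins had 10 genes, of which 1 crossed at NS-GFP2+, 3 at NS-GFP3+ and 6 at NS-GFP4+. Their differences between the ends ran from 0.74 to 3.11. Cx3cl1, a membrane-anchored chemokine, crossed at NS-GFP2+, with means of 7.62 ± 0.36 in NS-GFP4+ and 5.37 ± 0.59 in NS-GFP1+. Inha, the inhibin alpha subunit, had the largest difference (3.11), at 6.68 ± 0.49 in NS-GFP4+ against 3.57 ± 0.35 in NS-GFP1+. Ccl19, a ligand of Ccr7, crossed at NS-GFP4+ (2.37), as did Bmp4 (1.49) and Bmp7 (1.15). Apln, the ligand of the apelin receptor, crossed at NS-GFP3+ (1.56), as did Wnt5b (0.74).

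The 11 receptors spanned differences between the ends of 0.74 to 3.40. Fzd4, a Frizzled receptor of Wnt and Norrin, crossed at NS-GFP2+ and measured 5.59, 5.37 and 5.83 in NS-GFP1+, 6.80, 6.27 and 6.90 in NS-GFP2+, 6.85, 7.08 and 7.34 in NS-GFP3+ and 8.13, 7.64 and 8.20 in NS-GFP4+. Only NS-GFP3+ and NS-GFP2+ overlapped, by the lowest NS-GFP3+ value (6.85) and the highest NS-GFP2+ value (6.90). Ryk, the second Wnt receptor of the set, crossed at NS-GFP4+, with means of 7.15 ± 0.14 in NS-GFP4+ and 3.75 ± 1.21 in NS-GFP1+. Fgfr1, a fibroblast growth factor receptor, crossed at NS-GFP3+ by its switched-on probe (1.27) and not by further probes given below. The serotonin receptor Htr2a crossed at NS-GFP3+ as well (1.69). Tnfrsf25, a death-domain receptor of the tumour necrosis factor family, crossed at NS-GFP4+ (1.37), with means of 5.40 ± 0.50, 5.16 ± 0.41, 5.50 ± 0.33 and 6.77 ± 0.14 from NS-GFP1+ to NS-GFP4+.

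The 10 kinases, phosphatases and adaptors crossed at NS-GFP3+ (3) or NS-GFP4+ (7). Grb10, an imprinted adaptor that restrains insulin receptor signalling, had the largest difference (2.83) and measured 4.83, 5.18 and 4.68 in NS-GFP1+, 5.98, 6.04 and 5.97 in NS-GFP2+, 5.94, 6.66 and 6.67 in NS-GFP3+ and 7.88, 7.78 and 7.53 in NS-GFP4+. NS-GFP4+ lay above the other fractions, and 1 NS-GFP3+ value (5.94) lay under all 3 of NS-GFP2+. Dusp4, a phosphatase of MAP kinases, and Prkaa2, a catalytic subunit of AMP-activated kinase, had differences of 2.54 and 2.55. Rps6ka6, a ribosomal S6 kinase, followed with 2.31, and Sphk1, which makes sphingosine-1-phosphate, with 1.62.

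Transcription and chromatin was the largest group, with 15 genes on 16 probes, of which 5 probes crossed at NS-GFP2+, 6 at NS-GFP3+ and 5 at NS-GFP4+. Hoxb5, a homeobox factor known as a marker of long-term stem cells, measured 2.35, 4.43 and 3.82 in NS-GFP1+, 4.11, 3.97 and 4.90 in NS-GFP2+, 5.04, 5.11 and 5.86 in NS-GFP3+ and 6.39, 6.45 and 6.90 in NS-GFP4+. NS-GFP3+ and NS-GFP4+ each stood above the fraction before with no overlap, while NS-GFP1+ and NS-GFP2+ overlapped, with 1 NS-GFP1+ value (2.35) at the bottom of the scale. Hoxb2 lies in the same cluster with 2 protein-coding genes between them, and crossed at NS-GFP3+ (2.20). Mecom, the zinc-finger factor Evi1 and its longer form that stem cells need, crossed at NS-GFP2+ and measured 5.86, 4.89 and 4.71 in NS-GFP1+, 6.21, 6.33 and 5.59 in NS-GFP2+, 6.50, 6.18 and 6.40 in NS-GFP3+ and 7.35, 7.65 and 6.64 in NS-GFP4+. The NS-GFP2+ mean of this probe (6.04) lay under the column medians and its NS-GFP3+ mean (6.36) over them, so by the mean it crossed at NS-GFP3+. Unlike most of the set, Mecom had its lowest value in replicate 3 in NS-GFP1+, NS-GFP2+ and NS-GFP4+. Maff, a small Maf factor, had the largest difference of the group (3.20), and Ikzf4, an Ikaros-family factor, crossed at NS-GFP2+ (2.19). Yap1, the effector of Hippo signalling, crossed at NS-GFP4+ (1.26). At the small end, Chd6 and Zbtb14 differed by 0.27 and 0.34.

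Adhesion, junctions and matrix held 10 genes on 11 probes. Beside Cldn5 and Jam3, Col18a1, a basement membrane collagen that yields endostatin, had 2 switched-on probes, with differences of 2.08 and 1.91. One crossed at NS-GFP4+ and the other at NS-GFP3+. Timp3, an inhibitor of metalloproteinases, crossed at NS-GFP2+ (2.03), and Mmp17, a membrane-anchored metalloproteinase, at NS-GFP3+ (1.77). Lamb2, a laminin chain, and Bcam, a laminin receptor, had differences of 1.69 and 1.53. Serpinh1, a collagen chaperone, had 0.94.

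The remaining group was put together by hand from 5 genes of the X chromosome: Tceal3 and Tceal6 of the TCEAL family, Bex2 of the BEX family, Nap1l3 and Tro. Of the genes that could be placed, 4.79% of the switched-on ones and 3.63% of those on the array are X-linked. TCEAL proteins resemble a transcription elongation factor, and Nap1l3 belongs to the nucleosome assembly family. Tceal3 measured 5.08, 2.94 and 4.93 in NS-GFP1+, 6.39, 6.04 and 5.96 in NS-GFP2+, 6.44, 7.06 and 6.78 in NS-GFP3+ and 7.73, 8.09 and 8.08 in NS-GFP4+, with 1 NS-GFP1+ value (2.94) far under the other 2. Tceal6 had means of 8.22 ± 0.19 in NS-GFP4+ and 5.57 ± 0.39 in NS-GFP1+. Tro, trophinin, and Nap1l3 crossed at NS-GFP3+ (2.51 and 1.62) and Bex2 at NS-GFP4+ (1.78).

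The 10 metabolic enzymes crossed at NS-GFP2+ (4), NS-GFP3+ (1) or NS-GFP4+ (5). After Sult1a1 and Cyp26b1 came Echdc2 (1.97), of the enoyl-CoA hydratase family, and Gsta4 (1.51), a glutathione transferase that clears 4-hydroxynonenal. Fah, the last enzyme of tyrosine breakdown, crossed at NS-GFP2+ (1.36), and Eno2, the neuronal enolase, at NS-GFP4+ (1.41). Nr1h3, the oxysterol receptor LXR-alpha and a member of the transcription group, was the other gene with 2 switched-on probes, at 1.05 and 0.74.

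The remaining 97 genes were given no role group. They include Aebp1, Palld, Hspb1, Gem, Igdcc4 and Kcnj13 among those crossing at NS-GFP2+. Rbfox2, Phactr1, Ppp1r9a, Cadps2, Tnni3 and Ybx2 crossed at NS-GFP3+. Rhoj, Arc, Mlf1, Rasip1, Cd55b, Camsap3, Sh3gl3 and Kif21a crossed at NS-GFP4+. Among protein-coding genes, Obsl1 and Inha, Prkaa2 and Plpp3, Ephb4 and Zan, Arhgap8 and Phf21b, and Nap1l3 and Cldn34c1 were direct neighbours in the RefSeq gene order. Overlapping transcripts cannot be told apart by these probes.

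Of the switched-on genes, 5 belong to lists of lineage markers, chosen with earlier results of these data known. Of 26 genes of the stem cell list on the array, 4 were switched on, against 168 of 17846 genes over the array: Hoxb5, Mecom, Slamf1 and Tek. Slamf1, the CD150 receptor used to sort stem cells, measured 4.72, 4.73 and 5.09 in NS-GFP1+, 5.39, 4.68 and 5.28 in NS-GFP2+, 5.98, 5.38 and 5.53 in NS-GFP3+ and 6.25, 6.44 and 6.52 in NS-GFP4+. NS-GFP4+ stood above all others, and NS-GFP1+ and NS-GFP2+ overlapped. Tek, the receptor Tie2 of angiopoietin 1, measured 4.53, 4.46 and 6.03 in NS-GFP1+, 5.52, 4.70 and 5.80 in NS-GFP2+, 6.31, 5.72 and 5.79 in NS-GFP3+ and 6.24, 6.47 and 6.61 in NS-GFP4+. Replicate 3 of NS-GFP1+ lay just under the column median, and NS-GFP3+ overlapped with both NS-GFP2+ and NS-GFP4+. The other 22 genes of the list did not meet the rule, 20 of the 26 genes being above the median in all columns by their brightest probe. Over the list, 26 of 26 genes had a higher mean in NS-GFP4+ than in NS-GFP1+ (median 1.08), against 49.1% of all probes. A higher mean in NS-GFP3+ than in NS-GFP2+ was found for 25 of 26 (median 0.23), none past the threshold, against 48.2% of all probes.

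Vwf, von Willebrand factor, was the switched-on gene of the megakaryocyte list, which has 14 genes on the array. All 14 were higher in NS-GFP4+, against 49.1% of all probes. The switched-on Vwf probe A_55_P2169659 measured 3.85, 4.08 and 5.37 in NS-GFP1+, 4.97, 5.06 and 5.26 in NS-GFP2+, 4.94, 5.36 and 6.09 in NS-GFP3+ and 6.69, 6.76 and 6.99 in NS-GFP4+. Its difference of NS-GFP3+ minus NS-GFP2+ was 0.37, and 0.05 without NS-GFP3+ replicate 3. In the per-array files, which lack that sample, it was -0.08. A second Vwf probe lay above the median in all 12 columns, with means of 8.16, 8.69, 9.27 and 10.79 from NS-GFP1+ to NS-GFP4+. Vwf therefore counts as switched on by one probe only, while both had their highest mean in NS-GFP4+.

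Markers of other lineages moved along the fractions as well. No gene of the B cell, myeloid, erythroid, T and NK cell, mast cell, dendritic cell or stromal and endothelial lists was switched on. The same held for the list of multipotent progenitor and lymphoid priming genes. Over the array 168 of 17846 genes were, so lists this short would hold few or none at that share, and nothing is read from their absence. The mean level of the B cell list relative to the column median ran from 0.48 to 0.71 in NS-GFP4+ samples and from 3.32 to 3.76 in NS-GFP1+ samples (log2), and 0 of its 9 genes were higher in NS-GFP4+. The list of multipotent progenitor and lymphoid priming genes ran from 3.52 to 3.89 in NS-GFP4+ and from 5.04 to 5.27 in NS-GFP1+. Of its 17 genes, 2 were higher in NS-GFP4+. The difference of NS-GFP4+ minus NS-GFP1+ was, for instance, -5.30 for Rag1 and -3.08 for Il7r, against -0.85 for Flt3 and -0.20 for Cd34. The granulocyte and monocyte list ran from 5.14 to 5.47 in NS-GFP4+ and from 5.78 to 6.50 in NS-GFP1+, with 7 of 20 higher. The stroma and endothelium list, which bears on genes such as Cldn5, Tek and Ephb4, ran from 1.71 to 1.89 in NS-GFP4+ and from 1.58 to 2.15 in NS-GFP1+, with 6 of 10 higher. Over all probes, 49.1% were higher in NS-GFP4+. Counts of genes higher in NS-GFP4+ were 11 of 14 for the erythroid list, 1 of 8 for T and NK cells, 3 of 8 for mast cells, basophils and eosinophils and 3 of 10 for dendritic cells. They were 28 of 31 for the cell cycle, 7 of 13 for quiescence and CDK inhibitors, 5 of 10 for nucleostemin and nucleolar genes and 9 of 13 for the interferon response, none with a switched-on gene. The part of these lists in the values of the switched-on probes was not tested. 

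Other probes of the same genes give a measure that the rule did not choose directly, though from the same 6 columns. The array holds 83 further probes for 62 of the genes. Of these, 66 (79.5%) had a higher mean in NS-GFP4+ than in NS-GFP1+, against 49.1% of all probes, with a median of log2 0.70. Below the median in all columns were 34 of the 83, above it in all columns 24, and 25 were mixed. The second Sult1a1 probe had means of 9.57 in NS-GFP4+ and 6.02 in NS-GFP1+, and the second Wfdc2 probe 9.03 and 5.94. The second Mecom probe stayed below the median in all columns, at 5.66 in NS-GFP4+ and 4.01 in NS-GFP1+.

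For other genes the probes disagreed. One further Meg3 probe had means of 4.22 in NS-GFP4+ and 4.61 in NS-GFP1+, and another was higher in NS-GFP4+ by 2.36. The second Bmp4 probe was near the bottom of the scale, at 2.59 in NS-GFP4+ and 2.87 in NS-GFP1+, and of the further Rhoj probes 1 was lower in NS-GFP4+ (3.82 against 4.41 in NS-GFP1+) and the other was near the bottom of the scale in all fractions. The second Clca3a1 probe stood at 16.74 in NS-GFP4+ and 16.69 in NS-GFP1+, while the switched-on probe of that gene measured 7.09, 7.44 and 7.79 in NS-GFP4+ and 4.98, 4.42 and 6.12 in NS-GFP1+. Further probes of Fgfr1 lay above the median in all 12 columns, with differences of NS-GFP4+ minus NS-GFP1+ of -0.09 and 1.28. Further probes of Sphk1 (1.58), Zbtb14 (0.26) and Chd6 (-0.21 and -0.10) also lay above it in all 12 columns. By these probes the genes did not cross the median. Which transcript each probe reports cannot be read from the files.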

How the data were processed

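Total RNA of sorted LSK cells was run on single-colour Agilent arrays, per the labels' protocols. The value table deposited by the authors holds log2 values whose columns share nearly 1 distribution; the sources used here name neither its method nor the scanner software or genome build. The deposited per-array intensity files are linear and not normalised; all 42071 values of the NS-GFP3+ replicate 3 file repeat those of NS-GFP2+ replicate 3, so the alternative that uses these files has 11 arrays.

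The 49 control spots were left out. GEO's platform annotation pairs 24406 of 42022 probes (58.1%) with 1 symbol, 0 with several and 17616 with none; no symbol needed updating. Fits used limma 3.58.1 (R 4.3.3; lmFit, eBayes, 1 mean per fraction, all 12 columns, Benjamini-Hochberg over all probes, threshold 0.05, no filter), and plots matplotlib 3.10.9. The number of arrays limits the precision. On simulated data the fit recovered 49 of 100 probes changed 2-fold and 77 of 100 changed 4-fold between NS-GFP3+ and NS-GFP2+, with 10 false calls among 42022. The simulated noise was independent between arrays, without a shift of replicate 3, and the changed probes were drawn from the whole array. These rates therefore do not give the power at the switched-on probes.

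Same-numbered NS-GFP3+ and NS-GFP2+ samples deviated from their fraction means together (r of 0.19, 0.14 and 0.42). The numbers from the labels were therefore taken to pair the samples in the replicate block and in the same-numbered pairs. The main fit did not use this pairing. These r rest on 3 columns a fraction, with replicate 3 set apart.

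The members and lists were chosen with earlier results of these data known. The text names members by rule: the 10 largest differences between the ends, the 5 largest at each crossing, the 5 largest and 5 smallest of NS-GFP3+ minus NS-GFP2+, listed genes, genes with 2 switched-on probes, and the threshold's neighbours. Role groups, and the genes named from them, were picked after the members were seen.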

Additional observations from a re-analysis of the deposited data

How the results depend on the processing

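The number of switched-on probes depends on the rule's terms. It was 207 as given, 724 with at least 2 of 3 columns at each end, 29 with a margin of log2 0.5 on both sides, and 408 with replicate 3 left out of all fractions, an alternative chosen after seeing the data. Leaving out single columns gave 229 to 338, the highest without NS-GFP1+ replicate 3. The 40th and 60th percentiles in place of the median gave 208 and 182 probes, of which 36 and 29 were among the 207, so the membership belongs to the chosen level. With all 3 columns required, 17 of the 207 crossed at NS-GFP2+ and 0 were above there only. In the per-array intensity files 38 crossed at NS-GFP3+ and 8 were above in NS-GFP2+ only. Both of the 2 NS-GFP3+ arrays had to lie above there, against 2 of 3 in NS-GFP2+, so the counts are not like for like. Read against the 60th percentile, 0 were above in both middle fractions, 4 in NS-GFP3+ only, 0 in NS-GFP2+ only and 203 in neither. NS-GFP4+ values were not checked in that count, and 29 of the 207 met the rule at that level. The 203 therefore cannot be read as crossing at NS-GFP4+. With single columns left out, and the mean of the remaining columns read against the median, 1 to 4 were above in NS-GFP2+ only.

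For NS-GFP3+ against NS-GFP2+, 0 switched-on probes passed the adjusted threshold in every limma fit run. Those higher at an unadjusted p under 0.05 numbered 35 in the per-array files (1.88% of all probes) and 89 with the replicate block (3.72%), against 58 (2.23%). Those lower numbered 0 with an intensity trend (2.25% of all probes), 3 in the per-array files (5.01%) and 2 with the replicate block (3.68%). They numbered 0 with that block on 6 columns (4.03%), an added alternative, and 0 to 2 with single columns left out (1.79% to 3.46%). The replicate block changed no call at the adjusted threshold. The median difference was 0.245 in the per-array files, where the median of all probes was -0.087. Probes with all NS-GFP3+ above all NS-GFP2+ values numbered 80 to 106 with single columns left out, the highest without NS-GFP2+ replicate 3. Fewer columns make non-overlap easier. The share over all probes was not counted with a column left out, so nothing is read from these larger numbers. The median place in the per-array files, scaled to their 75th percentile, was 0.488 for NS-GFP3+ and 0.303 for NS-GFP2+, against 0.594 and 0.343 in the value table. Adding 16 to each intensity of those files gave 0.406 and 0.270. The difference for Vwf was -0.08 in the per-array files; with single columns left out that for Cnnm1 ran from -0.65 to 0.08 and that for Bmp4 from -0.43 to 0.02. The cause of these shifts was not tested. Apart from single columns left out, 42 recomputed counts and medians stayed within 1.5-fold or the replicate spread and 21 did not. Of the recomputed differences of named genes, 282 kept their sign and 3 did not. Many of these could not change. NS-GFP3+ minus NS-GFP2+ stays the same by construction without an NS-GFP1+ or NS-GFP4+ column, with a trend, filter or replicate block, or on 6 columns. The median difference is fixed in the same way, so these tallies do not measure robustness. Without background or detection columns, how far dim values stand above background is unknown.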
